A study of Mus musculus with 9 samples.

Results

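The lysosomal genes described here are 36 listed members: soluble hydrolases, their activator proteins, lysosomal membrane proteins and the transcription factor Tfeb. They were taken by symbol from a list that leaves out the cathepsins and the subunits of the vacuolar proton pump, and although that rule uses no measured value, the list was drawn up with earlier results of these data known. All 36 were found among the 36528 genes of the files, and all 36 passed the low-count filter that left 12250 genes for testing. RNA came from Cd11b+ myeloid cells, the population that holds the microglia, taken by sorting from brains of mice 11 to 12 months of age. The Tau-P301L group held 5 libraries from mice with a tau transgene carrying the P301L mutation, of which libraries 1 and 2 came from females and 3, 4 and 5 from males. Their littermates without the transgene, called wild-type here, gave 4 libraries, of which 1 and 2 came from females and 3 and 4 from males. The promoter that drives the transgene is not given in the sources used here. Whether every library is from its own mouse is not labelled, and the p-values cover the spread among these samples alone, which may be technical.

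Lysosomes are acidic organelles in which hydrolases break down proteins, glycans and lipids taken up from outside or delivered from within the cell. The membrane proteins shield the membrane, carry lipids and ions across it and fuse lysosomes with other vesicles, and inherited loss of many of these genes causes a lysosomal storage disease, often with damage to the brain. Microglia digest debris and protein aggregates in lysosomes and express many lysosomal genes at high levels. Tfeb, when it enters the nucleus, binds E-boxes of the form CACGTG in the promoters of lysosomal genes and raises their transcription.

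Such E-boxes were looked for in RefSeq promoter windows (GRCm38.p6) that reach from 250 bases before to 50 bases after an annotated start. Windows were given for 33 of the 36 members, not for Npc1, Galns and Asah1. The palindrome CACGTG, which reads the same on both strands, was found for 10 of the 33 members (30.3%) and for 8.09% of the 27025 genes with a window. The longer TCACGTG, searched on both strands and containing CACGTG, was found for the same 10 members, against 4.29% of all genes. The full TCACGTGA was found for 3 members (9.09%), Cln3, Gla and Mcoln1, against 1.12% of all genes. The 10 members were Arsa, Cln3, Gaa, Gla, Glb1, Lamp1, Lgmn, Mcoln1, Naglu and Sgsh. A gene was counted if any of its windows held the match, so genes with more annotated starts had more windows searched. The shares over all genes include genes that were not tested here. A match is a run of letters, not a measured binding site. Tfeb itself had no match in its windows.

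The sequences below show how these boxes sit in the promoters of members described further on. Each is 30 bases, 5′ to 3′ on the gene's own strand, with the E-box and the T before or A after it in capitals. Lamp1 has 4 boxes within 60 bases, while Lgmn and Gaa have 1 each. A gene can have several annotated starts, and distances are from the start of the window that holds the box. For Cln3 and Lgmn that is a start inside the gene, 2581 and 636 bases downstream of its 5′ end, and for the other 4 genes shown it is the 5′ end itself.
Lamp1 E-box 1, chr8:13159088-13159117, plus strand, centre 58 bases before the start: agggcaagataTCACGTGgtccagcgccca
Lamp1 E-box 2, chr8:13159104-13159133, plus strand, centre 42 bases before the start: tggtccagcgccCACGTGAtgccgactggc
Lamp1 E-box 3, chr8:13159121-13159150, plus strand, centre 25 bases before the start: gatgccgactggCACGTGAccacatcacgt
Lamp1 E-box 4, chr8:13159134-13159163, plus strand, centre 12 bases before the start: acgtgaccacaTCACGTGcggaacggagcc
Mcoln1 E-box 1, chr8:3500436-3500465, plus strand, centre 68 bases before the start: ggtcgcgcttgTCACGTGttcagttcaggc
Mcoln1 E-box 2, chr8:3500462-3500491, plus strand, centre 42 bases before the start: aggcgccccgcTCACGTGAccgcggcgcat
Cln3 E-box 1, chr7:126583368-126583397, minus strand, centre 146 bases before the start: gcaaccctcaagCACGTGAtggaaggctca
Cln3 E-box 2, chr7:126583340-126583369, minus strand, centre 118 bases before the start: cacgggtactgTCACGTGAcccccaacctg
Gla E-box 1, chrX:134601215-134601244, minus strand, centre 224 bases before the start: taagcgattgaTCACGTGAgcatctacgtc
Gla E-box 2, chrX:134601182-134601211, minus strand, centre 191 bases before the start: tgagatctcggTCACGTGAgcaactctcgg
Lgmn E-box 1, chr12:102439124-102439153, minus strand, centre 46 bases before the start: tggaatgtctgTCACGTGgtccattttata
Gaa E-box 1, chr11:119267811-119267840, plus strand, centre 137 bases before the start: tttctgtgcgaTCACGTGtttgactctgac

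**Figure D1:**
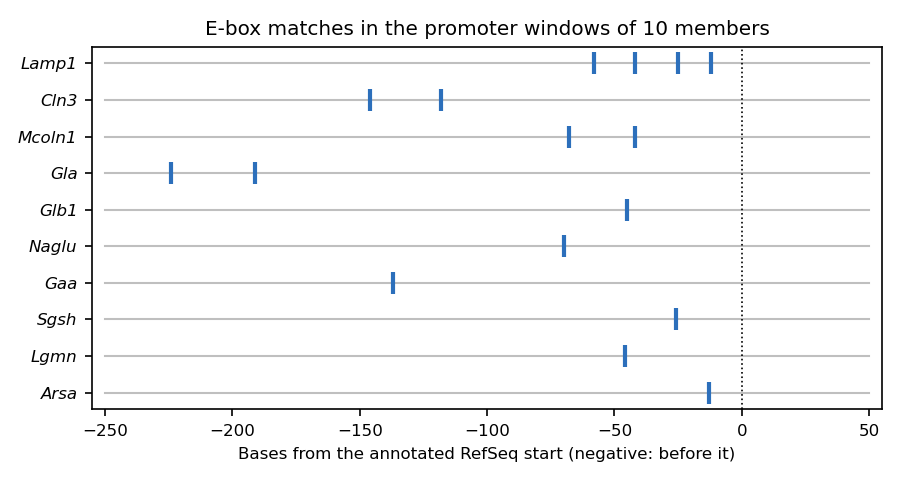
Positions of E-boxes (TCACGTG on either strand, blue ticks) in the promoter windows of the 10 members that hold one. Distances are in bases from the annotated RefSeq start of the window (dotted line). For Cln3, Lgmn and, by 4 bases, Naglu this is a start inside the gene. Lamp1 carries 4 boxes between 58 and 12 bases before its start, and the boxes of Gla lie farthest from the start, at 224 and 191 bases before it.

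Reads counted in genes numbered 1494727 to 3793606 per library, so 3 reads correspond to 0.791 to 2.01 CPM (counts relative to the library's total) before any scaling. Levels of single genes are given below as CPM after TMM scaling, which corrects for differences in library composition. Reads of mitochondrially encoded genes took 9.30 to 20.0% of the wild-type and 10.2 to 23.1% of the Tau-P301L libraries, with the highest share in Tau-P301L library 3. The 8 microglial markers summed to 10160 to 14150 CPM in wild-type and 8127 to 14740 CPM in Tau-P301L libraries. Those of border macrophages summed to 32.1 to 112 CPM and those of T cells and of B cells to under 3 CPM in every library. The 6 astrocyte markers summed to 526 to 670 CPM in the 3 Tau-P301L males and to 309 to 417 CPM in the other 6 libraries. Oligodendrocyte markers were highest in Tau-P301L library 5 (1441 CPM, against 327 to 700 CPM elsewhere). Neutrophil markers were highest in Tau-P301L library 4 (234 CPM, against 0 to 67.7 CPM elsewhere). None of the 6 astrocyte markers passed the genotype test, with 5 higher and 1 lower estimate. Tau-P301L library 3 had the highest mitochondrial share and library 5 the fewest reads, and this pair was also left out together.

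Together the 36 members took 0.302 to 0.495% of the reads of a library. Their summed level was 4320 ± 376 CPM over the wild-type (SD, n = 4) and 3858 ± 361.8 CPM over the Tau-P301L libraries (SD, n = 5). The wild-type libraries 1 to 4 summed to 4460, 4526, 4535 and 3758 CPM, and Tau-P301L libraries 1 to 5 to 3308, 3701, 3974, 4221 and 4086 CPM. Wild-type library 4 therefore lay inside the range of the Tau-P301L libraries. Members with many reads weigh most in these sums. Wild-type and Tau-P301L means were 809.9 and 552 CPM for Laptm5 and 507 and 351 CPM for Lgmn. They were 368.5 and 383 CPM for Lamp2 and 321.5 and 389 CPM for Tpp1. In bulk RNA from sorted cells, fewer cells of a type and less RNA per cell cannot be told apart. Tau-P301L library 3 held the lowest value of 12 of the 36 members and Tau-P301L library 1 that of 7, while wild-type library 3 held the highest value of 8. The fewest reads of any member in a library were 2, for Gla in wild-type library 3, and 29 members had a mean above 10 CPM in both groups.

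Levels were compared between genes only per length, with the deposited RPKM. Laptm5, a lysosomal membrane protein that sends receptors for degradation, was the most abundant member at 76.9 ± 11.9 RPKM in wild-type libraries (SD, n = 4). Lgmn, the asparagine-specific protease legumain, followed at 60.97 ± 5.17 RPKM (SD, n = 4). Cd68, a heavily glycosylated macrophage protein, stood at 25.3 ± 9.15 RPKM, Grn at 23.5 ± 3.95 RPKM and Tpp1 at 21.5 ± 5.62 RPKM (SD, n = 4). These 3 neighbours lay within 1 SD of each other. The same 5 genes led in Tau-P301L libraries, with Laptm5 at 52.8 ± 12.98 and Lgmn at 42.6 ± 10.5 RPKM (SD, n = 5). Lamp1 and Lamp2, the main glycoproteins of the lysosomal membrane, stood next to each other at 17.9 ± 4.19 and 17.6 ± 4.25 RPKM in wild-type libraries (SD, n = 4). The lowest 3 were Smpd1, Arsa and Gla, at 0.528 ± 0.294, 0.525 ± 0.404 and 0.226 ± 0.132 RPKM (SD, n = 4).

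**Figure D2:**
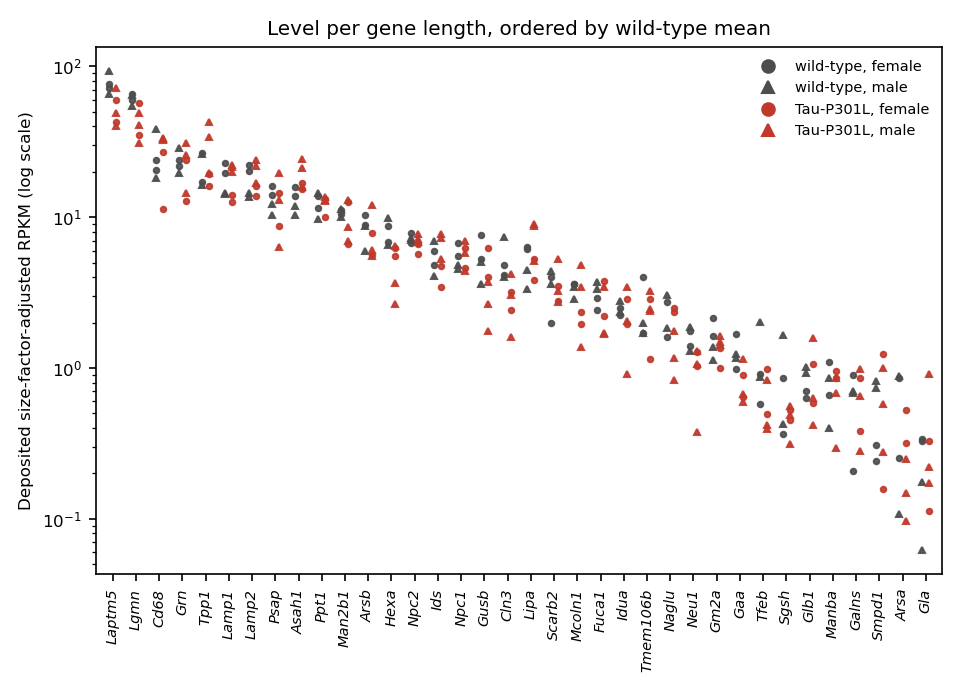
Deposited size-factor-adjusted RPKM (log scale) of the 36 members in every library, ordered by the wild-type mean, with wild-type in grey, Tau-P301L in red, circles for females and triangles for males. Laptm5 and Lgmn stand above the other members in wild-type libraries, and Arsa and Gla stand lowest.

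The main question was how these genes differ between Tau-P301L and wild-type mice. None of the 36 passed an adjusted p of 0.05 in edgeR's quasi-likelihood test, nor in DESeq2 or limma-voom. Over all tested genes the shares called were 0.00816%, 0.141% and 0.00816%. In edgeR that share is 1 gene of 12250, Rfk. The smallest adjusted p of a member in edgeR was 0.708. At an unadjusted p under 0.05, 4 of 36 members were lower in Tau-P301L (11.1%, against 2.78% of all tested genes), namely Laptm5, Lgmn, Cln3 and Hexa. In the higher direction there was 1 of 36 (2.78%, against 3.57% of all tested genes), Asah1. DESeq2 gave 5 members at an unadjusted p under 0.05 in either direction (13.9%, against 7.52% of the genes it kept) and limma-voom 4 (11.1%, against 5.98%). Of the 36 estimates, 26 were lower and 10 higher (72.2% lower, against 50.1% of all tested genes). The median log2 fold change of the members was -0.12, against 0.00 over all tested genes, and single estimates had standard errors of 0.22 to 0.88. Without wild-type library 3, or without Tau-P301L libraries 3 and 5 together, none of the members had an unadjusted p under 0.05, and the medians were -0.15 and -0.14. Without that pair of Tau-P301L libraries the estimates of Lamp2 (-0.18), Lipa (-0.11), Tpp1 (-0.22), Gla (-0.19), Npc1 (-0.14), Tmem106b (-0.13) and Cd68 (-0.03) stood below 0 and that of Psap (0.12) above it, each opposite in sign to its value over all libraries. Of the other members taken by the rule for named genes, those that moved by over 1.5 times were Smpd1 (0.92), Gusb (-0.28), Mcoln1 (-0.17), Grn (-0.04) and Lamp1 (-0.13), with Hexa (-0.38) and Asah1 (0.27). Of the 8 microglial markers, 7 also had lower estimates and none passed, and their part in the members' direction was not tested.

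Hexa and Neu1 were the 2 members for which every Tau-P301L library lay below every wild-type library (5.56%, against 1.18% of all tested genes). None had every Tau-P301L library above every wild-type library, against 1.31% of all tested genes. For Neu1 the nearest libraries nearly touched, with wild-type library 4 at 20.8 CPM and Tau-P301L library 2 at 20.7 CPM.

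**Figure D3:**
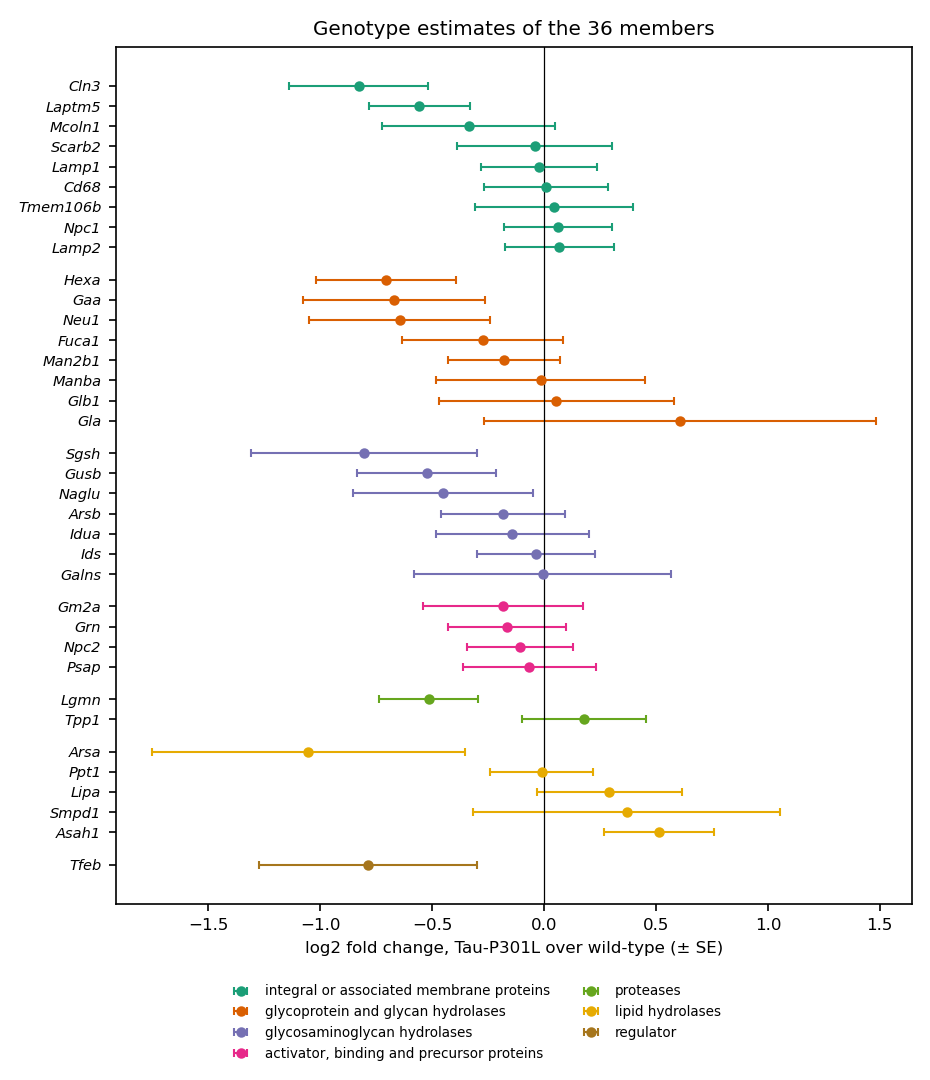
Log2 fold change of Tau-P301L over wild-type (points, with bars of 1 SE, edgeR) for each of the 36 members, coloured by the role of the protein. The 7 glycosaminoglycan hydrolases all lie at or left of 0, from -0.81 for Sgsh to -0.01 for Galns, and Asah1 lies at 0.51.

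Among the 9 membrane proteins, 5 estimates were lower and 4 higher (median log2 fold change -0.02), and the 2 of smallest p, Cln3 and Laptm5, were lower. Laptm5 (Entrez gene 16792, chromosome 4, 130912890 to 130936148, GRCm38.p6) stood at 769, 807, 967 and 697 CPM in wild-type libraries 1 to 4 and at 453, 639, 414, 749.5 and 506 CPM in Tau-P301L libraries 1 to 5. Its mean was 809.9 ± 114 CPM over the wild-type (SD, n = 4), and 552 ± 139 CPM over the Tau-P301L libraries (SD, n = 5). Tau-P301L library 4 reached into the wild-type range, and the other 4 lay below all wild-type libraries (log2 fold change -0.56, SE 0.23, edgeR adjusted p = 0.748). Without Tau-P301L libraries 3 and 5 the log2 fold change was -0.38.

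Cln3, a membrane protein mutated in juvenile Batten disease (Entrez gene 12752, chromosome 7, 126571207 to 126585817), stood at 64.97, 75.3, 114 and 63.4 CPM in wild-type libraries 1 to 4 and at 38.1, 50.4, 24.2, 65.4 and 46.8 CPM in Tau-P301L libraries 1 to 5. Highest was wild-type library 3, and among the Tau-P301L libraries number 4 alone lay above the lowest wild-type library (log2 fold change -0.83, SE 0.31, edgeR adjusted p = 0.708). This was the smallest adjusted p of the members in edgeR, and the log2 fold change was -0.58 without Tau-P301L libraries 3 and 5. Cln3 overlaps Apobr, a receptor for lipoproteins, which stood at 132 CPM in wild-type and 81.2 CPM in Tau-P301L libraries (log2 fold change -0.76, SE 0.28). Counting is not stated to use strand, and what reads of Apobr add to the count of Cln3 was not tested. Laptm5 overlaps Gm38599, a gene at 6.61 and 5.17 CPM.

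Lamp1 (Entrez gene 16783, chromosome 8, 13159161 to 13175338) stood at 185, 213, 133 and 136 CPM in wild-type libraries 1 to 4 and at 119, 133, 180.3, 206 and 195 CPM in Tau-P301L libraries 1 to 5. The groups overlapped (log2 fold change -0.02, SE 0.26, edgeR adjusted p = 0.99). Lamp2 (Entrez gene 16784, chromosome X, 38399647 to 38456460) stood at 429.7, 459.6, 278 and 306 CPM in wild-type libraries 1 to 4 and at 338, 294, 487, 349.8 and 446 CPM in Tau-P301L libraries 1 to 5, again with overlap (log2 fold change 0.07, SE 0.24, edgeR adjusted p = 0.969). Both split by sex in a way described further on.

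Cd68 stood at 149, 173, 275 and 134 CPM in wild-type libraries 1 to 4 and at 82.6, 197, 226, 239 and 235 CPM in Tau-P301L libraries 1 to 5. Tau-P301L library 1 was the lowest of all 9, and the other 4 Tau-P301L libraries lay between 197 and 239 CPM (log2 fold change 0.01, SE 0.28, edgeR adjusted p = 0.997). Tmem106b, a membrane protein of late endosomes and lysosomes linked to the risk of frontotemporal dementia, stood at 43.5, 102, 49.4 and 43.8 CPM in wild-type libraries 1 to 4 and at 72.7, 29.3, 79.4, 62.0 and 59.4 CPM in Tau-P301L libraries 1 to 5. Its highest value was in a wild-type library and its lowest in a Tau-P301L library (log2 fold change 0.04, SE 0.35, edgeR adjusted p = 0.988).

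Mcoln1, the calcium channel that releases lysosomal calcium, stood at 33.1, 32.7, 30.99 and 26.6 CPM in wild-type libraries 1 to 4 and at 17.8, 21.8, 12.1, 43.6 and 30.7 CPM in Tau-P301L libraries 1 to 5. The wild-type libraries lay close together, and the Tau-P301L libraries spread on both sides of them (log2 fold change -0.34, SE 0.39, edgeR adjusted p = 0.898). Npc1, which passes cholesterol out of the lysosome, stood at 121, 145, 97.6 and 106 CPM in wild-type libraries 1 to 4 and at 101, 138, 123, 94.9 and 147 CPM in Tau-P301L libraries 1 to 5. The groups overlapped (log2 fold change 0.06, SE 0.24, edgeR adjusted p = 0.972). Scarb2, a receptor that carries glucocerebrosidase to the lysosome, had an estimate of -0.04 (SE 0.35).

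**Figure D4:**
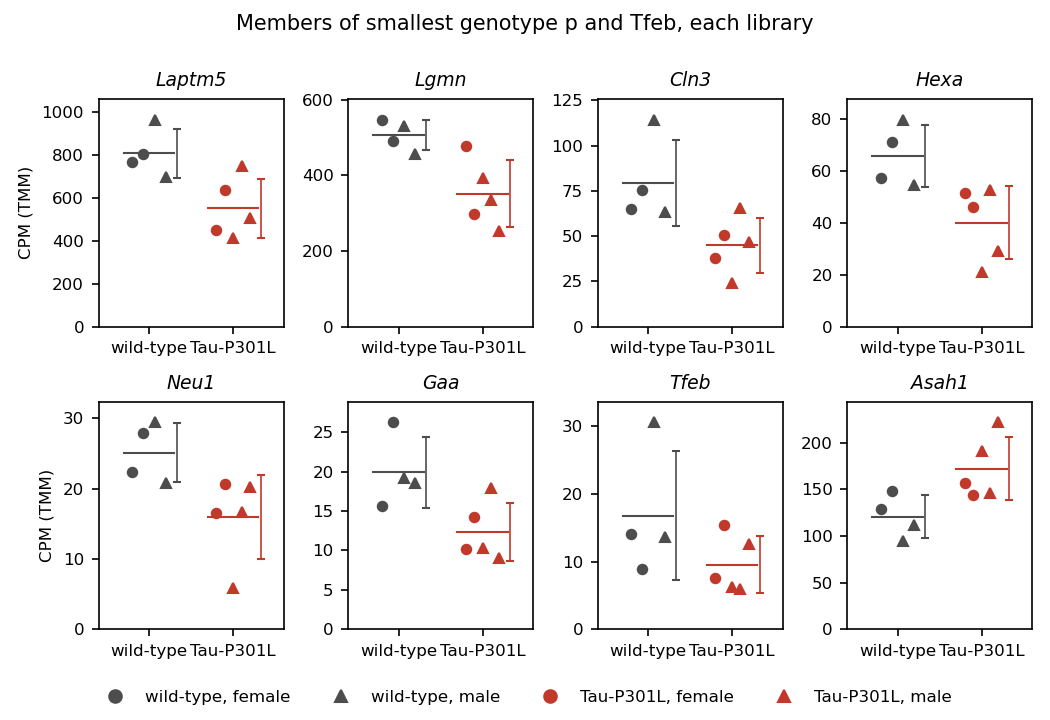
Level in CPM after TMM scaling of 8 members in every library (circles for females, triangles for males), with the mean of the 4 wild-type (grey) and 5 Tau-P301L (red) libraries as a line and 1 SD as a bar at its side. For Hexa and Neu1 every Tau-P301L library lies below every wild-type library, and for Laptm5, Lgmn, Cln3, Gaa, Tfeb and Asah1 the groups overlap.

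The 8 hydrolases of glycoproteins, glycolipids and glycogen had 6 lower and 2 higher estimates (median log2 fold change -0.23). Hexa, the alpha chain of beta-hexosaminidase, whose loss causes Tay-Sachs disease (Entrez gene 15211, chromosome 9, 59539540 to 59565109), stood at 57.3, 71.3, 79.96 and 54.8 CPM in wild-type libraries 1 to 4 and at 51.5, 46.1, 21.1, 52.6 and 29.3 CPM in Tau-P301L libraries 1 to 5. Its mean was 65.8 ± 11.9 CPM over the wild-type (SD, n = 4), and 40.1 ± 14.1 CPM over the Tau-P301L libraries (SD, n = 5). The nearest libraries of the groups were wild-type library 4 and Tau-P301L library 4, and Tau-P301L libraries 3 and 5 were lowest (log2 fold change -0.71, SE 0.31, edgeR adjusted p = 0.776). Without those 2 libraries the log2 fold change was -0.38.

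Gaa, the acid glucosidase that degrades glycogen and is lost in Pompe disease, stood at 15.6, 26.2, 19.1 and 18.6 CPM in wild-type libraries 1 to 4 and at 10.2, 14.3, 10.3, 17.96 and 9.08 CPM in Tau-P301L libraries 1 to 5. Tau-P301L library 4 lay inside the wild-type range, and the other 4 lay below it (log2 fold change -0.67, SE 0.41, edgeR adjusted p = 0.79). Neu1, the sialidase, was singled out after its values were seen. It stood at 22.4, 27.96, 29.5 and 20.8 CPM in wild-type libraries 1 to 4 and at 16.5, 20.7, 5.83, 16.7 and 20.2 CPM in Tau-P301L libraries 1 to 5. Tau-P301L library 3, with 13 reads of Neu1, was far below the rest (log2 fold change -0.65, SE 0.40, edgeR adjusted p = 0.8).

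Gla, the alpha-galactosidase lost in Fabry disease, stood at 4.29, 4.09, 0.765 and 2.21 CPM in wild-type libraries 1 to 4 and at 4.13, 1.43, 2.69, 2.14 and 11.2 CPM in Tau-P301L libraries 1 to 5. These are 2 to 16 reads a library, and Tau-P301L library 5, the shallowest, was highest (log2 fold change 0.61, SE 0.88, edgeR adjusted p = 0.925). Estimates for Fuca1, a fucosidase, and for the mannosidases Man2b1 and Manba were -0.28 (SE 0.36), -0.18 (SE 0.25) and -0.02 (SE 0.47), and that for Glb1, the beta-galactosidase, was 0.06 (SE 0.53).

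All 7 hydrolases of glycosaminoglycans had lower estimates in Tau-P301L, with a median log2 fold change of -0.18 and a range of -0.81 to -0.01. Of all tested genes, 50.1% had a lower estimate. None of the 7 had an unadjusted p under 0.05. Their summed level was 409.9 ± 61.8 CPM over the wild-type (SD, n = 4) and 359 ± 65.1 CPM over the Tau-P301L libraries (SD, n = 5). The groups overlapped, and the highest sum was that of Tau-P301L library 5 (465 CPM, against 463 CPM in wild-type library 1). Gusb, the beta-glucuronidase, stood at 58.8, 84.6, 39.4 and 56.8 CPM in wild-type libraries 1 to 4 and at 45.1, 69.98, 18.8, 41.05 and 28.6 CPM in Tau-P301L libraries 1 to 5. The groups overlapped, with Tau-P301L libraries 3 and 5 lowest (log2 fold change -0.53, SE 0.31, edgeR adjusted p = 0.789). Sgsh, which takes sulfate from heparan sulfate, had an estimate of -0.81 (SE 0.51) at 0.827 RPKM in wild-type libraries, and Naglu, of the same pathway, one of -0.45 (SE 0.40). Sgsh overlaps Slc26a11, a sulfate transporter, whose own estimate was -1.09 (SE 0.70), and what its reads add to the count of Sgsh was not tested. Estimates were -0.18 (SE 0.28) for the sulfatase Arsb, -0.14 (SE 0.34) for the iduronidase Idua, -0.04 (SE 0.26) for the sulfatase Ids and -0.01 (SE 0.57) for the sulfatase Galns.

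The 5 hydrolases of lipids had 3 higher and 2 lower estimates (median log2 fold change 0.29). Asah1, the acid ceramidase (Entrez gene 11886, chromosome 8, 41340646 to 41397644), stood at 129, 148, 94.5 and 112 CPM in wild-type libraries 1 to 4 and at 157, 144, 192, 146 and 222 CPM in Tau-P301L libraries 1 to 5. Its mean was 121 ± 22.9 CPM over the wild-type (SD, n = 4), and 172 ± 33.8 CPM over the Tau-P301L libraries (SD, n = 5). Tau-P301L libraries 2 and 4 lay below wild-type library 2, and Tau-P301L libraries 1, 3 and 5 lay above all wild-type libraries (log2 fold change 0.51, SE 0.25, edgeR adjusted p = 0.776). Without Tau-P301L libraries 3 and 5, which held its highest values, the log2 fold change was 0.27. Asah1 overlaps Frg1, which stood at 81.5 and 82.7 CPM (log2 fold change -0.01).

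Lipa, the acid lipase that frees cholesterol from its esters (Entrez gene 16889, chromosome 19, 34492316 to 34527474), stood at 78.5, 75.7, 40.5 and 55.4 CPM in wild-type libraries 1 to 4 and at 65.1, 47.9, 108, 62.9 and 105 CPM in Tau-P301L libraries 1 to 5. Tau-P301L libraries 3 and 5 were the highest (log2 fold change 0.29, SE 0.33, edgeR adjusted p = 0.894). Smpd1, the acid sphingomyelinase, stood at 2.45, 3.07, 7.27 and 8.31 CPM in wild-type libraries 1 to 4 and at 1.59, 12.5, 2.69, 9.83 and 5.59 CPM in Tau-P301L libraries 1 to 5. Values from low to high occurred in both groups (log2 fold change 0.37, SE 0.69, edgeR adjusted p = 0.939). Ppt1, which removes palmitate from proteins, had an estimate of -0.01 (SE 0.23), and Arsa, the sulfatase lost in metachromatic leukodystrophy, one of -1.05 (SE 0.70) from 3 to 47 reads a library.

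All 4 activator, binding and precursor proteins had lower estimates, of -0.18 to -0.07, each smaller in size than its SE. In the fit by sex their median log2 fold change was -0.34 in females and 0.09 in males. Grn, which encodes progranulin and whose loss causes frontotemporal dementia or a storage disease, stood at 212, 230.1, 273 and 190.5 CPM in wild-type libraries 1 to 4 and at 124, 233, 240.4, 296 and 136 CPM in Tau-P301L libraries 1 to 5. Tau-P301L libraries 1 and 5 lay below the wild-type range and library 4 above it (log2 fold change -0.17, SE 0.26, edgeR adjusted p = 0.933). Psap, the precursor of the saposins that present sphingolipids to their hydrolases, stood at 160.3, 181, 114 and 139.6 CPM in wild-type libraries 1 to 4 and at 100.1, 166, 69.1, 221 and 143 CPM in Tau-P301L libraries 1 to 5. Tau-P301L libraries held both its lowest value, in library 3, and its highest, in library 4 (log2 fold change -0.07, SE 0.30, edgeR adjusted p = 0.976). Npc2, which hands cholesterol to Npc1, stood at 107, 90.01, 94.1 and 98.9 CPM in wild-type libraries 1 to 4 and at 77.5, 90.3, 94.2, 104 and 90.8 CPM in Tau-P301L libraries 1 to 5. It had the narrowest spread of the members named here relative to its mean, with overlapping groups (log2 fold change -0.11, SE 0.24, edgeR adjusted p = 0.946). Gm2a, the activator that works with the product of Hexa, had an estimate of -0.18 (SE 0.36).

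The 2 proteases had estimates of opposite sign. Lgmn (Entrez gene 19141, chromosome 12, 102394082 to 102439728) stood at 547, 491, 531 and 457 CPM in wild-type libraries 1 to 4 and at 479, 297, 393, 335 and 252 CPM in Tau-P301L libraries 1 to 5. Its mean was 507 ± 40.5 CPM over the wild-type (SD, n = 4), and 351 ± 88.2 CPM over the Tau-P301L libraries (SD, n = 5). Tau-P301L library 1 lay inside the wild-type range and the other 4 lay below it (log2 fold change -0.52, SE 0.22, edgeR adjusted p = 0.776). Without Tau-P301L libraries 3 and 5 the log2 fold change was -0.48. Tpp1, a tripeptidyl peptidase lost in late-infantile Batten disease, stood at 399, 254, 387 and 246 CPM in wild-type libraries 1 to 4 and at 293, 244, 624, 289 and 497 CPM in Tau-P301L libraries 1 to 5. Tau-P301L libraries 3 and 5 were highest and library 2 lowest of all 9 (log2 fold change 0.18, SE 0.28, edgeR adjusted p = 0.931).

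Tfeb (Entrez gene 21425, chromosome 17, 47737037 to 47792416) stood at 14.1, 8.87, 30.6 and 13.6 CPM in wild-type libraries 1 to 4 and at 7.62, 15.3, 6.28, 5.99 and 12.6 CPM in Tau-P301L libraries 1 to 5. These are 14 to 80 reads a library, the highest being wild-type library 3, and the groups overlapped (log2 fold change -0.79, SE 0.49, edgeR adjusted p = 0.798). Without wild-type library 3 the log2 fold change was -0.33. The 10 members with a TCACGTG box had a median log2 fold change of -0.48 (8 lower and 2 higher), and the 23 with a window but no such box had one of -0.11 (17 lower and 6 higher). The medians differ in level too, at 1.79 and 5.46 RPKM in wild-type libraries, and no test of the difference was made. The 10 include Arsa and Gla, which have few reads. They also include Cln3, Sgsh and Glb1, which overlap other genes, as do Ppt1, Idua and Laptm5 among the 23. Whether the level of Tfeb has a part in these estimates was not tested.

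Both sexes were present in both groups, so the genotype effect could be compared between them. In females the median log2 fold change of the members was -0.32 (27 lower and 9 higher) and in males -0.11 (22 lower and 14 higher), against 0.00 and 0.01 over all tested genes. Lower estimates in both sexes were found for 14 members and higher in both for 1, Asah1. A lower estimate in females with a higher one in males was found for 13, and the reverse for 8.

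Lamp1, Lamp2 and Lipa were the 3 members of smallest p for the difference between the sexes. For each of them both Tau-P301L females lay below both wild-type females, and all 3 Tau-P301L males lay above both wild-type males. That is 3 of 36 members (8.33%), against 1.24% of the 13302 genes tested for the difference. This count comes from the same values as the p for the difference, so it is not separate support. The reverse pattern was found for 0 members, against 1.86% of tested genes. Lamp1 averaged 199 CPM in wild-type and 126 CPM in Tau-P301L females, and 134 and 194 CPM in wild-type and Tau-P301L males. The male effect exceeded the female effect by 1.19 log2 units (SE 0.46, edgeR adjusted p = 1). Lamp2 averaged 445 and 316 CPM in females and 292 and 428 CPM in males in the same order, a difference of 1.04 (SE 0.44, edgeR adjusted p = 1). For Lipa the means were 77.1 and 56.5 CPM in females and 48.0 and 92.1 CPM in males, a difference of 1.38 (SE 0.58, edgeR adjusted p = 1).

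None of the members passed the interaction test in edgeR, DESeq2 or limma-voom, and edgeR called 0% of all genes. At an unadjusted p under 0.05 these same 3 members had a male effect above the female effect (against 2.34% of all genes), and none had one below it (against 1.62%). Without wild-type library 2 none of the members had an unadjusted p under 0.05 for the interaction, and there was 1 each on leaving out wild-type library 1, wild-type library 3 or Tau-P301L library 2. Without Tau-P301L libraries 3 and 5, which leaves 1 Tau-P301L male assumed to vary like the other groups, 2 members had such a p and the differences were 1.28 for Lamp1, 0.75 for Lamp2 and 0.84 for Lipa. The astrocyte markers were also highest in the 3 Tau-P301L males (526 to 670 CPM), and their part in these values was not tested.

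**Figure D5:**
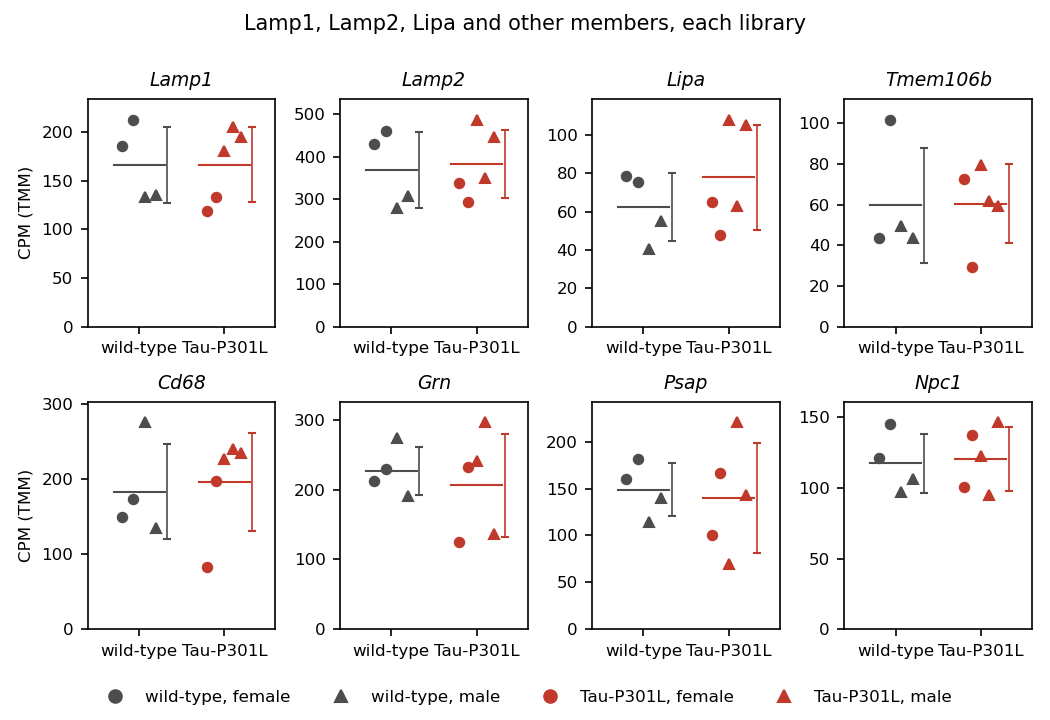
Level in CPM after TMM scaling of 8 members in every library (circles for females, triangles for males), with the mean as a line and 1 SD as a bar for the 4 wild-type (grey) and 5 Tau-P301L (red) libraries. For Lamp1, Lamp2 and Lipa the red circles lie below the grey circles and the red triangles above the grey triangles.

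Between the sexes with both genotypes together, none of the members passed an adjusted p of 0.05 in edgeR, DESeq2 or limma-voom, against 0.0490% of all genes in edgeR. Gusb alone had an unadjusted p under 0.05 (2.78% of members, against 2.43% of all genes), with a log2 value of -0.78 for males over females (SE 0.31, edgeR adjusted p = 1). Cd68 had the next smallest p, with a log2 value of 0.56 for males over females (SE 0.28).

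Other genes of the lysosome, grouped by role, also had no member past an adjusted p of 0.05 in edgeR. Their counts at an unadjusted p under 0.05 stand against 2.78% of all tested genes in the lower and 3.57% in the higher direction, and with 11 to 24 tested genes a list such a share is 1 gene or fewer. Of 19 tested further hydrolases and activators, 12 had lower and 7 higher estimates (median log2 fold change -0.04), and 1 had an unadjusted p under 0.05. That was Dnase2a, the lysosomal DNase, at 26.1, 10.2, 28.7 and 10.2 CPM in wild-type libraries 1 to 4 and at 5.72, 6.43, 7.62, 16.2 and 9.78 CPM in Tau-P301L libraries 1 to 5 (log2 fold change -1.14, SE 0.48, edgeR adjusted p = 0.772). Acp2 was next by p (log2 fold change -0.45, SE 0.24). Of 24 tested further membrane proteins and transporters, 13 were higher and 11 lower (median 0.03), and 2 had an unadjusted p under 0.05, both lower. These were Tpcn1, a cation channel (log2 fold change -0.84, SE 0.32), and Slc15a3, a peptide transporter (-0.64, SE 0.28).

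Genes that modify and sort hydrolases had a median log2 fold change of -0.21 (16 tested, 10 lower and 6 higher). At an unadjusted p under 0.05 there was 1, Gnptab, in the higher direction. Gnptab, which makes the mannose 6-phosphate tag, stood at 46.3, 34.1, 20.7 and 41.5 CPM in wild-type libraries 1 to 4 and at 73.7, 60.3, 51.1, 39.8 and 52.4 CPM in Tau-P301L libraries 1 to 5. Tau-P301L library 4 was the lowest Tau-P301L library and lay below 2 wild-type libraries (log2 fold change 0.67, SE 0.30, edgeR adjusted p = 0.776). Vps26a, of the retromer, was next by p (0.54, SE 0.33). The cathepsins had a median of 0.10 (11 tested, 8 higher and 3 lower), and none had an unadjusted p under 0.05. Smallest were the p values of Ctsc, which activates other proteases (0.61, SE 0.29), and Ctsf (-0.66, SE 0.36). Regulators of lysosomal transcription and nutrient sensing had a median of 0.33 (19 tested, 12 higher and 7 lower), again with none at an unadjusted p under 0.05. Their smallest p values were those of Rragd, a GTPase of nutrient sensing (1.63, SE 0.79, from 0.306 to 13.3 CPM), and Tsc1 (0.62, SE 0.32).

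Subunits of the proton pump, which acidifies the lysosome, had a median log2 fold change of -0.04 (14 tested, 9 lower and 5 higher). At an unadjusted p under 0.05 there were 2, Atp6v1c1 in the higher and Atp6v0a2 in the lower direction. Atp6v1c1, a subunit of the cytoplasmic part, stood at 49.96, 44.3, 42.9 and 53.7 CPM in wild-type libraries 1 to 4 and at 76.9, 62.8, 95.96, 67.98 and 77.5 CPM in Tau-P301L libraries 1 to 5. All 5 Tau-P301L values exceeded all 4 wild-type values, as they did for 1.31% of all tested genes, and the gene did not pass (log2 fold change 0.66, SE 0.27, edgeR adjusted p = 0.748). Atp6v0a2, of the membrane part, stood at 45.7, 63.4, 55.9 and 36.3 CPM in wild-type libraries 1 to 4 and at 16.2, 26.8, 9.87, 55.2 and 12.6 CPM in Tau-P301L libraries 1 to 5. Tau-P301L library 4 lay inside the wild-type range and the other 4 below it (log2 fold change -1.06, SE 0.43, edgeR adjusted p = 0.758).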

How the data were processed

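RNA was measured in 9 libraries of sorted Cd11b+ brain myeloid cells, 4 wild-type and 5 Tau-P301L, grouped by the genotype in their labels and numbered in sample order. The authors aligned reads with GSNAP to GRCm38, per the submitters' processing notes. The deposited counts are reads aligned uniquely to a gene model, per the file headers, and the deposited RPKM values were, per the file headers, rescaled by the authors through a size factor for each sample. The versions, the annotation and the strand setting were not given in the sources used here. Gene numbers were matched to symbols and positions through a RefSeq table of GRCm38.p6 (31049 of 36528 matched), and genes without a symbol stayed in the fits. Of the members, 8 overlap another tested gene in position, namely Glb1, Npc1, Ppt1, Asah1, Idua, Sgsh, Cln3 and Laptm5.

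Tests across all genes used edgeR 4.0.16 (R 4.3.3) on the counts: TMM scaling, the default low-count filter, robust quasi-likelihood fits with genotype and sex, 6 residual degrees of freedom, and Benjamini-Hochberg adjustment at 0.05. The interaction came from a fit that added the product term, and standard errors from the F statistic. The fit was tested on simulated data. Alternatives were DESeq2 1.42.0, limma-voom (limma 3.58.1) with sample weights, RLE scaling, no filter, a filter of at least 20 reads in 4 libraries, no sex term, the mitochondrial share as a term, and leaving out libraries. Libraries were compared for duplicates, and within groups every pair differed by more than counting noise (smallest chi-square over its degrees of freedom 12.97).

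The members, the gene lists and the rule for named genes were chosen with earlier results of these data known. Values in every library are given for the 6 members of smallest genotype p in each direction, the 5 of highest wild-type RPKM, 13 set genes (Lamp1, Lamp2, Cd68, Grn, Psap, Laptm5, Tmem106b, Tfeb, Mcoln1, Npc1, Npc2, Hexa and Gaa), the 3 of smallest interaction p and the 2 of smallest sex p. Neu1 and the other members outside the rule were added, and of each related list the 2 genes of smallest p. Protein sequences are not used here.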

Additional observations from a re-analysis of the deposited data

Results flagged for a closer look

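Single libraries stood apart from the rest of their group for 5 members, by the gap to the nearest library relative to the group's range, out of 72 groups examined. The limit used, Dixon's critical value, is set so that chance flags about 1 in 20 groups of normally distributed values. Cd68 was lowest in Tau-P301L library 1, at 82.6 CPM, and Neu1 in Tau-P301L library 3, at 5.83 CPM from 13 reads. Ppt1 was lowest in Tau-P301L library 2, at 111 CPM. Gla was highest in Tau-P301L library 5, at 11.2 CPM from 16 reads, and Tmem106b in wild-type library 2, at 102 CPM.

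For 3 members every Tau-P301L female lay below every wild-type female and every Tau-P301L male above every wild-type male. The male effect exceeded the female effect by 1.19 log2 units for Lamp1, 1.04 for Lamp2 and 1.38 for Lipa. The edgeR interaction test gave unadjusted p-values of 0.0181, 0.0284 and 0.0269 in that order and an adjusted p of 1 for each, so none passed.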

How the results depend on the processing

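The number of members past an adjusted p of 0.05 was 0 for genotype, interaction and sex under every alternative run, and the members' median genotype estimate stayed negative, from -0.24 to -0.05. Of the alternative genotype values of single named members, 318 kept their sign and 37 did not, and all 39 interaction values of Lamp1, Lamp2 and Lipa kept theirs. The interaction fits without Tau-P301L libraries 3 and 5 and those for these 3 genes were chosen after seeing the data. No paired analysis was possible because the labels carry no replicate numbers. Members with under 20 reads in a library, such as Gla, Arsa, Smpd1, Neu1, Gaa and Tfeb, are limited by depth there. The cause of the changes below was not tested.

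All genes called for genotype numbered 19 with DESeq2, 26 without the low-count filter, 0 without Tau-P301L libraries 3 and 5, and 0 to 1 with single libraries left out. For the interaction they numbered 3 with DESeq2, 22 without the filter, 1 without Tau-P301L libraries 3 and 5, and 0 to 4 with single libraries left out. Members at an unadjusted p under 0.05 numbered 0 for genotype without Tau-P301L libraries 3 and 5 and 0 to 5 with single libraries left out. For the interaction they numbered 0 to 4.

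Without Tau-P301L libraries 3 and 5 the genotype estimate changed sign for Lamp2 (-0.18), Cd68 (-0.031), Gla (-0.19), Psap (0.12), Lipa (-0.11), Npc1 (-0.14), Tpp1 (-0.22) and Tmem106b (-0.13). It did so with limma-voom for Lamp2 (-0.018) and Tmem106b (-0.047), and without the sex term for Lamp1 (0.005). For Cd68 it did so without the filter (-0.008) and with the mitochondrial share in the model (-0.018). With single libraries left out, estimates ran from -0.20 to 0.15 for Lamp1, -0.10 to 0.23 for Lamp2, -0.23 to 0.22 for Cd68, -0.011 to 1.11 for Gla and -0.31 to 0.11 for Psap. They ran from -0.032 to 0.18 for Npc1, -0.054 to 0.39 for Tpp1, -0.49 to 0.65 for Smpd1 and -0.13 to 0.42 for Tmem106b.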
